A study of Mus musculus with 8 samples.

Results

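The cytosolic ribosomal protein genes were followed in the mouse Sertoli cell line TTE3 over the first 24 h at 39 °C. Members were the probe sets that the platform annotation assigns to 1 gene symbol consisting of Rpl or Rps and a number, with an optional letter or l suffix, or to Rplp0, Rplp1, Rplp2 or Rpsa. Rps6k kinases, pseudogenes and mitochondrial ribosomal proteins were left out. The rule found 48 genes, measured by 100 of the 22626 probe sets. A further 102 probe sets carry a ribosomal protein symbol together with other symbols and were left out, and 28 ribosomal protein genes, Rpl5, Rpl23, Rpl26 and Rps27a among them, are not analysed here for that reason.

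TTE3 comes from mice transgenic for the large T-antigen of simian virus 40 in a temperature-sensitive form, and all 8 samples are of this 1 line. Total RNA was hybridised to Affymetrix Mouse 430A arrays after 0, 6, 12 or 24 h at 39 °C, the temperature at which the T-antigen does not function, with 2 numbered samples per time. The 0 h samples are the reference, and every later time differs from them in temperature, in T-antigen state and in hours of culture together. Whether the replicates of a time were separate cultures is not stated in the labels. The p-values therefore reflect the spread between these particular samples, which may be technical.

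The ribosome has a small subunit, which reads the mRNA, and a large subunit, which forms peptide bonds, and each ribosomal protein is present in about equal amount. In mammals the mRNAs of nearly all of these proteins begin with a pyrimidine tract, the TOP motif, through which growth signals by way of mTORC1 and Larp1 set their translation, so that protein output can change while mRNA does not. A few genes have paralogs, such as Rps27l beside Rps27, and free ribosomal proteins such as Rpl5 and Rpl11 bind the p53 ubiquitin ligase Mdm2. Sertoli cells line the seminiferous tubule of the testis and support the developing germ cells.

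The arrays had been scaled to one trimmed mean, between 500.18 and 500.2 units, and their medians ran from 138 to 154.3 units. Within a time the arrays correlated with r of 0.9815 to 0.9904, computed across probe sets, whose values are not independent of each other. Of 17 Sertoli markers, all with a probe set, 8 passed the filter on low signals, among them Sox9, Wt1, Gata4 and Clu, while Amh, Fshr, Dhh and Dmrt1 did not. The summed Sertoli signal was 4228 to 4522 units at 0 h and 6737 to 7408 at 24 h, when Clu, which encodes clusterin, and Inhbb were called higher. Most of that difference was Clu, at 1395 and 1337 units at 0 h and 4205 and 3323 at 24 h. Wt1, Inha and Nr5a1 were at -0.27, -0.20 and -0.04 on the log2 scale at 24 h without passing. At 6 h, 2 of the 8 tested Sertoli markers were called higher (25%, against 8.65% of all tested probe sets) and 1 lower (12.5%, against 9.33%). Kitl (0.70, limma, adjusted p = 0.00757) and Inhbb (0.66, adjusted p = 0.00979) were higher, and Wt1 (-0.64, adjusted p = 0.0446) was lower. None of 6 germ cell and none of 4 endothelial markers passed. Of the remaining lists, 1 of 4 Leydig, 2 of 4 smooth muscle and 2 of 5 macrophage markers did, and Star (Leydig) and Cd68 (macrophage) were called higher at 24 h. Summed signals at 0 h and 24 h were 96.8 to 157.9 and 248 to 326.1 units for the Leydig list and 428.4 to 529.7 and 557.3 to 566.5 for the macrophage list. Their part in the results below was not tested.

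Start regions are shown for the genes whose signals stand out below, with Rplp0 as an example of the bright genes. The sequences are from RefSeq (GRCm38.p6) and run from 50 bases before to 20 bases after the first listed start of each gene. Capitals mark the words CTTTC and CTTCC and also CTCTT, which pyrimidine tracts at ribosomal protein starts often contain, and neighbouring matches can overlap.

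Rps27l (chr9:66946036-66946105, plus strand): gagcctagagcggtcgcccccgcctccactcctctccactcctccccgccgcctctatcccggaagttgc
Rps27 (chr3:90213629-90213698, minus strand): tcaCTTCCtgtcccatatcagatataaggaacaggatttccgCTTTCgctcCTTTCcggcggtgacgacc
Rpl22l1 (chr3:28805458-28805527, plus strand): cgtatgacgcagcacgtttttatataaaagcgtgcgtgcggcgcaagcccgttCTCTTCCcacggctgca
Rpl7l1 (chr17:46782637-46782706, minus strand): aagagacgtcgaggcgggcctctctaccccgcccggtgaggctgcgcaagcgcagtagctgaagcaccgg
Rps25 (chr9:44407664-44407733, plus strand): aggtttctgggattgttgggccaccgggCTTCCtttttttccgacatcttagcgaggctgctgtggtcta
Rpl14 (chr9:120571467-120571536, plus strand): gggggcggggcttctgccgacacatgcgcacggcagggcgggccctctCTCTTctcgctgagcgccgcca
Rpl13a (chr7:45128726-45128795, minus strand): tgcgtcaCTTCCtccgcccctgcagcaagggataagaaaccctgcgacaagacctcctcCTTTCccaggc
Rplp0 (chr5:115559417-115559486, plus strand): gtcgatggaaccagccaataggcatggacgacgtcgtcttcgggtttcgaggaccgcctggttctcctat

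Promoters were listed for 42 of the 48 genes, 50 in all. On the sense strand, 38 of the 50 (76%) held at least 1 of the 3 words within 50 bases either side of the start, against 36.3% of all 32851 promoters in the table. On the opposite strand the shares were 38% and 37.9%. Of the genes printed, Rps27l, Rpl7l1 and Rplp0 held none of these words in the printed stretch. The consensus decamer of p53, which is a half-site, was found in 3 of the 50 promoters on either strand (6%). Of all promoters of the same length, 8.36% held it. These were promoters of Rps27, Rps19 and Rps27l. A later listed promoter of Rps27l, a gene known as a transcriptional target of p53, held this half-site 117 and 220 bases after the first start. The half-sites are shown in capitals here. These letters are a description, pairs of half-sites were not searched for, and binding was not measured.

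Rps27l, 117 bases after (chr9:66946193-66946222, plus strand): ctttgggctcGGGCTTGCTTtccttcaggc
Rps27l, 220 bases after (chr9:66946296-66946325, plus strand): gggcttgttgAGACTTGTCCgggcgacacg

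The brightest ribosomal protein probe sets changed little in signal over the 24 h, and the dimmer ones varied more. Of the 100 probe sets, 87 (46 genes) passed the filter, and 57 of these, for 34 genes, had mean signals of 9289 to 26290 units, at or above percentile 98.9 of all probe sets by mean log2 signal. These 57 are called the bright members below, a division at 8000 units made after the values were seen. Over the 4 times, the means of 56 of the 57 (98.2%) stayed within 1.5-fold, the exception being an Rpl13a probe set, with a median range of 1.25-fold. Of all tested probe sets 64.7% stayed within that limit, with a median range of 1.38-fold, but of 122 other probe sets as bright with 1 symbol, 91% did, with a median range of 1.25-fold, the same as for the bright members. Whether signals this high are compressed was not tested. Of the 30 dimmer members, with mean signals of 77.9 to 7817 units, 10 (33.3%) stayed within 1.5-fold. Signals of different probe sets do not compare mRNA levels, so bright and dim describe the probe sets only. The 13 probe sets that did not pass the filter, for 11 genes of which 9 had another tested probe set, had signals of 0.8 to 133.3 units.

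The narrowest range, 1.05-fold, was that of the brightest probe set of Rpl7, a large subunit protein. Its signals were 10894 and 10442 units at 0 h, 10105 and 11673 at 6 h, 11536 and 10215 at 12 h, and 11442 and 11053 at 24 h. The 24 h arrays lay just above the 0 h arrays, and the arrays of 6 h and of 12 h spanned both. Rps20, a small subunit protein, moved over 1.08-fold and 1.10-fold on its bright probe sets. Rps6, the small subunit protein phosphorylated by S6 kinases, had signals of 786 and 763 units at 0 h, 909 and 824 at 6 h, 752 and 825 at 12 h, and 807 and 796 at 24 h on its 1 tested probe set. The 12 h arrays spanned both the 0 h and the 24 h values. Its log2 difference at 24 h was 0.05 ± 0.11 (adjusted p = 0.774). A further 9 probe sets list Rps6 together with other symbols and were left out.

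**Figure D1:**
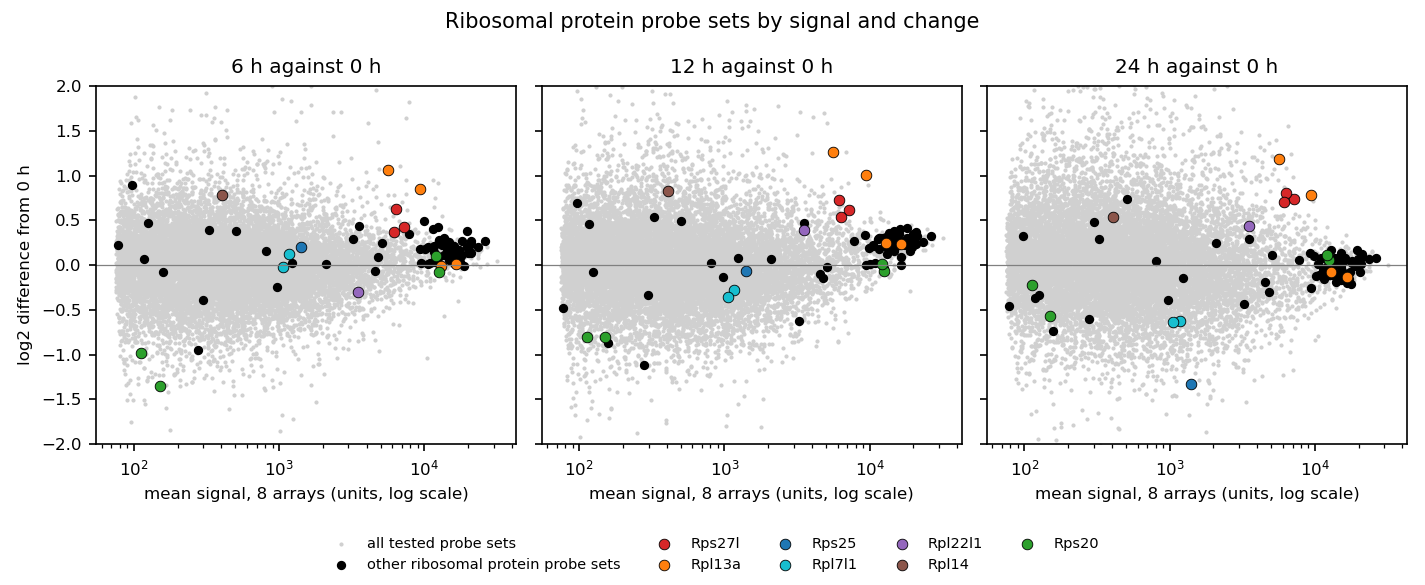
Log2 difference from 0 h (y axis) against mean signal over the 8 arrays (x axis, units, log scale) at 6, 12 and 24 h, with grey points for all tested probe sets, black for ribosomal protein probe sets and colours for the genes described in detail. The bright members form a tight cloud at the right with medians of 0.15, 0.25 and 0.01, while Rps27l and 2 of the 4 Rpl13a probe sets lie above it and Rps25 lies far below it at 24 h; 21, 26 and 62 grey points are beyond the axis limits of 2.

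At 6 h against 0 h, 12 of the 87 tested members passed the test (13.8%, against 18.0% of all tested probe sets). Of these, 10 members (11.5%) rose, in 6 genes, where 8.65% of all tested probe sets were called higher (limma, adjusted p below 0.05). They were 3 probe sets of Rps27l, 2 of Rpl13a, 2 of Rps24 and 1 each of Rpl14, Rpl22 and Rpl35. The 2 that fell (2.3%, background 9.33%) were both dim probe sets of Rps20. Over the members the median log2 difference was 0.16, against 0.00 over all tested probe sets.

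At 12 h, 18 members passed (20.7%, background 24.0%): 15 members (17.2%) rose, where 12.1% of all probe sets were called higher, and 3 fell (3.45%, background 11.9%). Besides Rps27l, Rpl13a, Rpl14, Rpl22 and Rps24, the rises were bright probe sets of Rps15, Rplp0, Rplp2, Rpl37a, Rps9 and Rpl10a. The falls were the same dim probe sets of Rps20 and 1 of Rpl7l1. The median over the members was 0.25, against 0.01 over all.

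At 24 h fewer members passed than at 12 h, 13 in all (14.9%), while the background rose to 32.9%. Of these, 8 members rose (9.20%, background 17.1%) and 5 fell (5.75%, background 15.8%), and the median over the members was 0.01, against 0.02 over all. The rises were Rps27l, Rpl13a, Rpl14, Rpl22 and Rpl22l1, and the falls Rps25, Rpl7l1, Rps4l and Rpl27. Among the 57 bright members, 3 were called at 6 h, 8 at 12 h and 1, of Rpl13a, at 24 h, all higher. In the F-test for any change over the 4 times, 26 members (29.9%, in 17 genes) were called, against 40.1% of all tested probe sets.

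The 8 bright members called at 12 h were 14% of the 57, where 12.1% of all tested probe sets were called higher. Of the 122 other probe sets as bright with 1 symbol, 11.5%, 18% and 13.1% were called higher at 6, 12 and 24 h. Called lower were 0.82%, 0.82% and 19.7% of those. Among the bright members 5.26% were called higher at 6 h and 1.75% at 24 h, and 0% lower. At 12 h, 53 of the 57 bright members had positive differences from 0 h, and at 24 h 31 were positive and 26 negative. Relative to the mean of the 0 h arrays, their median log2 difference was 0.26 and 0.25 on the 12 h arrays and 0.05 and -0.02 on the 24 h arrays. At 6 h it was 0.30 on replicate 1 but 0.04 on replicate 2, so the 6 h arrays differed from each other by more than the 6 h mean differed from 0 h. Rpl41, the smallest ribosomal protein, is an example: its brightest probe set had 23384 and 22966 units at 0 h, 34184 and 22788 at 6 h, 27760 and 30196 at 12 h, and 25774 and 23285 at 24 h. There the 12 h arrays were above both 0 h arrays, while one 6 h array was the highest of all and the other the lowest. Replicate 1 of 6 h was the highest of the 8 arrays for 30 of the 57 bright members. By the mean of a time, 41 were highest at 12 h and 13 at 6 h, 3 had their highest mean at 24 h, and 0 had it at 0 h.

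These medians depended on the scaling. The other bright probe sets with 1 symbol (8000 units or more, n = 122) had medians of 0.07 at 6 h, 0.13 at 12 h and -0.04 at 24 h. After quantile normalization, which gives all arrays one distribution, the bright members' medians were 0.07 and 0.04 on the 12 h arrays, and 2 of their 8 calls at 12 h remained. After cyclic loess the medians were 0.13 and 0.14, and 3 of the 8 calls remained. Centring each array on its median moved the median of all tested probe sets at 24 h from 0.02 to -0.09 and that of the bright members from 0.01 to -0.09. Because total RNA of a culture was measured, fewer cells with an mRNA and less of it per cell cannot be told apart.

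**Figure D2:**
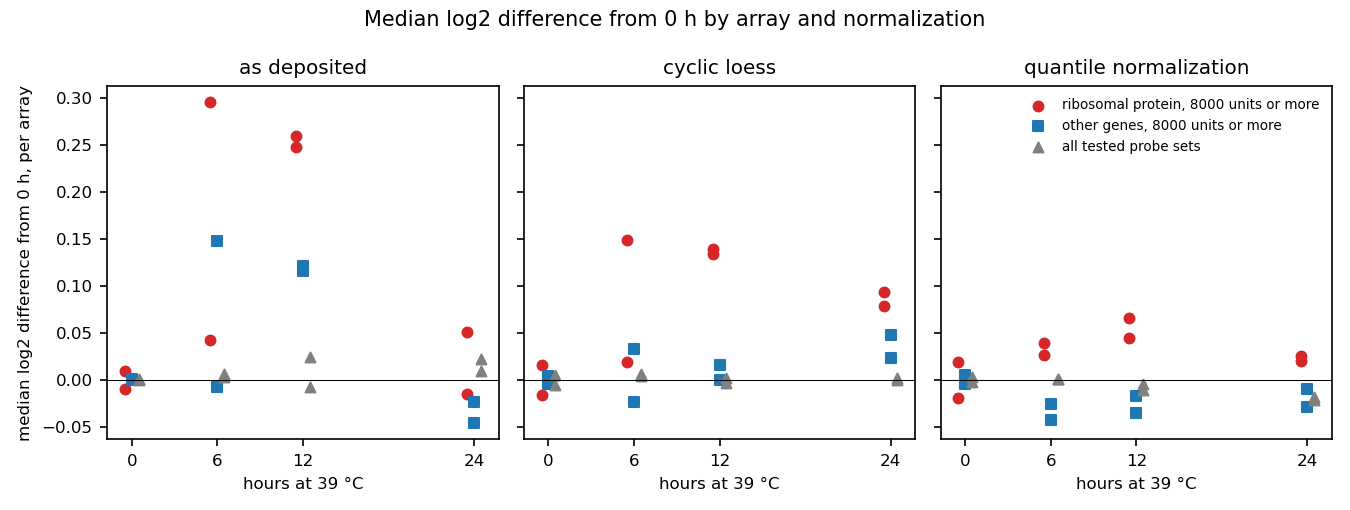
Median log2 difference from the mean of the 0 h arrays (y axis), 1 point per array, against hours at 39 °C (x axis), for bright ribosomal protein probe sets (red circles, n = 57), other bright probe sets with 1 symbol (blue squares, n = 122) and all tested probe sets (grey triangles), as deposited and after 2 normalizations. As deposited the red points stand at 0.26 and 0.25 at 12 h and at 0.30 and 0.04 at 6 h; after quantile normalization those at 12 h stand at 0.07 and 0.04.

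In both subunits the median difference from 0 h was highest at 12 h and lowest at 24 h. With each gene given by its brightest probe set and paralogs left aside, the medians of the 20 small subunit genes were 0.17, 0.24 and 0.04 at 6, 12 and 24 h, and those of the 22 large subunit genes 0.16, 0.29 and -0.03. At 12 h 2 small subunit genes (10%) and 5 large subunit genes (22.7%) rose, against 12.1% of all tested probe sets, and 0 fell. At 24 h 1 small subunit gene, Rps25, fell (5%, background 15.8%) and 1 large subunit gene, Rpl14, rose (4.55%, background 17.1%). The 19 genes of the families shared with bacteria had medians of 0.14, 0.30 and 0.02, and the 23 others 0.19, 0.23 and 0.01.

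The P-stalk of the large subunit, which recruits the translation factors, was measured through Rplp0 and Rplp2. Rplp0 had signals of 18764 and 18566 units at 0 h, 22068 and 19086 at 6 h, 23779 and 24600 at 12 h, and 21119 and 19422 at 24 h. Both 12 h arrays were above all others, and Rplp0 rose at 12 h by 0.37 ± 0.10 (log2 difference ± SE, adjusted p = 0.0183), a call lost under 7 of 18 alternatives, among them leaving out any array of 0 h or 12 h (adjusted p 0.0627 to 0.121) and quantile normalization (0.05, adjusted p = 0.628). Rplp2 rose at 12 h by 0.28 ± 0.09 (adjusted p = 0.0496), from 18412 and 17297 units to 21592 and 21670, a call lost under 11 of 18 alternatives (adjusted p up to 0.804, after quantile normalization). At 24 h Rplp2 stood at 18480 and 17424, within 0.01 ± 0.09 of 0 h.

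The other bright rises at 12 h, apart from a larger one of Rpl13a given below, were of 0.30 to 0.41. Rps15, at the head of the small subunit, rose by 0.41 ± 0.11 and 0.36 ± 0.11 on its 2 probe sets, the large subunit protein Rpl37a by 0.35 ± 0.11 on one of its bright probe sets, Rps9, in the body of the small subunit, by 0.33 ± 0.09, and Rpl10a, in the L1 stalk of the large subunit, by 0.30 ± 0.09. Each of these calls was lost under 8 to 10 of 18 alternatives, with adjusted p up to 0.23 for Rps15, 0.199 for Rpl37a, 0.152 for Rps9 and 0.301 for Rpl10a. In the other direction, leaving out an array of 6 h raised the number of bright members called higher at 12 h. It also raised the share of all tested probe sets called higher, and the median of the bright members stayed at 0.25. With only 0 h and 12 h in the fit, 42 of the 57 bright members were called higher, in place of 8. The share of all tested probe sets called higher was then 14%, in place of 12.1%.

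Of the members with known roles outside the ribosome, Rpl11, Rps19, Rps3, Rpsa, Rpl38 and Rps7 did not pass the test against 0 h at 12 h or 24 h. Rpl11, which binds Mdm2, had signals of 10721 and 10904 units at 0 h, 13840 and 11271 at 6 h, 13390 and 13238 at 12 h, and 10106 and 9299 at 24 h. The 12 h arrays were above the 0 h arrays, and the 24 h arrays were below them. The difference from 0 h was 0.30 ± 0.11 at 12 h (adjusted p = 0.063) and -0.16 ± 0.11 at 24 h (adjusted p = 0.295), and Rpl11 fell from 12 h to 24 h, a step given below.

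Rps19, mutated in Diamond-Blackfan anaemia, differed from 0 h by 0.38 ± 0.14 at 12 h (adjusted p = 0.064) and 0.03 ± 0.14 at 24 h. Rps3, which also takes part in DNA repair, differed by 0.27 ± 0.12 and 0.02 ± 0.12, and Rpsa, known also as the laminin receptor, by 0.27 ± 0.12 and 0.08 ± 0.12. Rpl38, needed for translation of Hox mRNAs in the embryo, differed by 0.23 ± 0.11 and 0.01 ± 0.11. Rps7, another protein that binds Mdm2, had probe sets at -0.03 ± 0.10 and 0.00 ± 0.09 at 12 h, and at -0.11 ± 0.10 and -0.26 ± 0.09 (adjusted p = 0.0553 for the latter) at 24 h.

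The 4 tested paralog genes were all called at 24 h (background 32.9%), in different directions. Rps27l and Rpl22l1 were higher (50%, background 17.1%) and Rpl7l1 and Rps4l lower (50%, background 15.8%). The calls of Rpl22l1 and Rps4l did not hold when arrays were left out, as given for each below. The others, Rpl39l, described as a testis-enriched paralog of Rpl39, and Rpl3l, a paralog of Rpl3 known from striated muscle, had signals of 1 to 36 and 2 to 8 units and were not tested.

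Rps27l rose at every later time on all 3 of its probe sets. The brightest had signals of 5210 and 5189 units at 0 h, 6894 and 7084 at 6 h, 7974 and 7937 at 12 h, and 8468 and 8856 at 24 h. No 2 times overlapped, and each was above the one before. It rose by 0.43 ± 0.08 at 6 h (adjusted p = 0.0063), 0.61 ± 0.08 at 12 h (adjusted p = 0.000538) and 0.73 ± 0.08 at 24 h (adjusted p = 8.02e-05), or 1.66-fold. The others rose at 24 h by 0.81 ± 0.13 and 0.70 ± 0.09. All 3 calls at 24 h were kept under each alternative tried. The 6 h calls were not: without 0 h replicate 1 their adjusted p values were 0.0645, 0.0929 and 0.0916, and without 0 h replicate 2 a pair of them was lost too (0.0641 and 0.14). At 12 h the call of the probe set with the widest spread was lost without 12 h replicate 1, 0 h replicate 1 or 0 h replicate 2 (adjusted p up to 0.117).

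Its partner Rps27 had 1 tested probe set, far dimmer, and 1 that lists other symbols too and was left out. Signals were 237 and 382 units at 0 h, 237 and 211 at 6 h, 207 and 265 at 12 h, and 425 and 435 at 24 h. Only the 24 h arrays stood above the rest. Against 0 h, where the arrays differed most, Rps27 was at 0.49 ± 0.20 at 24 h (adjusted p = 0.089).

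Rpl22l1, whose partner Rpl22 binds its mRNA and represses it in mice, had signals of 3089 and 3136 units at 0 h, 2160 and 2930 at 6 h, 3618 and 4622 at 12 h, and 4423 and 4023 at 24 h. The 6 h arrays lay below 0 h and the later arrays above it. It rose at 24 h by 0.44 ± 0.15 (adjusted p = 0.0421), which leaving out any array of 0 h or 24 h undid (adjusted p up to 0.206). At 6 h it was at -0.30 ± 0.15 (adjusted p = 0.18).

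Rpl7l1, the paralog of Rpl7 that acts in ribosome assembly, fell on both probe sets. On one, signals were 1246 and 1244 units at 0 h, 1231 and 1215 at 6 h, 990 and 941 at 12 h, and 776 and 806 at 24 h. The 12 h arrays lay below 6 h, and the 24 h arrays below 12 h. It fell at 24 h by 0.64 ± 0.10 on the log2 scale (adjusted p = 0.000522), or 1.56-fold, and the other probe set by 0.63 ± 0.14 (adjusted p = 0.00519), both under each alternative tried. At 12 h one probe set fell by 0.36 ± 0.10 (adjusted p = 0.0201, but up to 0.115 without an array of 0 h or 12 h) and the other was at -0.28 ± 0.14 (adjusted p = 0.165). Rpl7 itself, on 3 probe sets, was at 0.01 to 0.25 at 24 h, none of them called.

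Rps4l had signals of 1127 and 1082 units at 0 h and 888 and 791 at 24 h, and fell by 0.39 ± 0.13 (adjusted p = 0.0357). The call was lost when any array of 0 h or 24 h was left out (adjusted p up to 0.217). Its partner Rps4x, the X-linked small subunit protein, was at -0.02 ± 0.09 at 24 h. Rpl39, near the exit of the peptide tunnel, was at 0.30 ± 0.24 at 24 h on a dim probe set, which did not pass (adjusted p = 0.388).

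**Figure D3:**
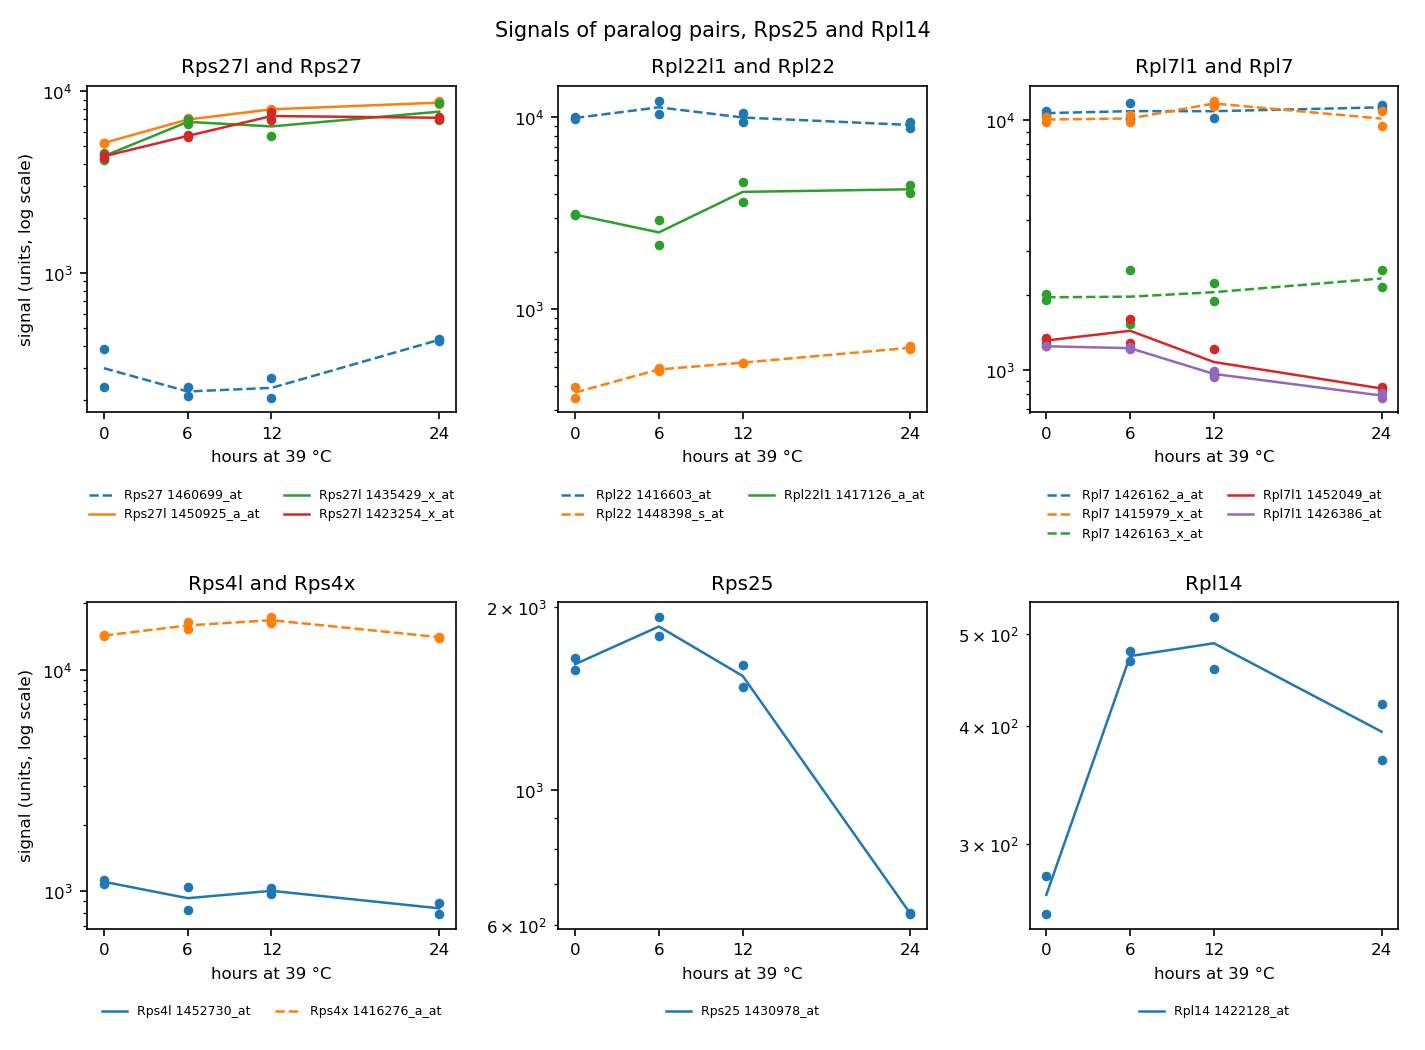
Signals (y axis, units, log scale) at 0, 6, 12 and 24 h at 39 °C (x axis), 1 point per array with lines through the means on the log2 scale, for 4 paralogs (solid) with their partners (dashed) and for Rps25 and Rpl14. The 3 Rps27l probe sets rise while Rpl7l1 falls to 776 to 857 units at 24 h, and Rps25 drops to 626 and 628 units at 24 h alone.

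Rps25, a small subunit protein needed for translation from several viral internal ribosome entry sites, made the largest fall of any member at 24 h. Its signals were 1576 and 1646 units at 0 h, 1925 and 1792 at 6 h, 1480 and 1604 at 12 h, and 626 and 628 at 24 h. The first 3 times lay close together, and both 24 h arrays were far below them. Rps25 fell at 24 h by 1.33 ± 0.10 (adjusted p = 4.49e-06), or 2.52-fold, and this call was kept under each alternative tried. It rests on 1 probe set. The other one that lists Rps25 carries further symbols and was left out.

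Rpl14, a large subunit protein, had signals of 278 and 253 units at 0 h, 468 and 480 at 6 h, 459 and 521 at 12 h, and 422 and 368 at 24 h. All later arrays were above both 0 h arrays. It rose by 0.79 ± 0.13 at 6 h (adjusted p = 0.00252) and 0.83 ± 0.13 at 12 h (adjusted p = 0.00118), under each alternative tried, and by 0.54 ± 0.13 at 24 h (adjusted p = 0.00922). The 24 h call was lost without 0 h replicate 2 (adjusted p = 0.077) or 24 h replicate 1 (adjusted p = 0.0908). This probe set is dim for a ribosomal protein, and 5 others that list Rpl14 with further symbols were left out.

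Probe sets of one gene could differ widely. There were 19 genes with more than 1 tested probe set. Against 0 h, in Rpl13a, Rps20, Rpl22 and Rps24 some passed while others did not. The same held in Rpl27, Rpl35, Rpl37a and Rps9, and in Rpl7l1 at 12 h. Of the 2 tested probe sets of Rps9, one rose at 12 h as given above and the other was at -0.02. Rpl13a, a large subunit protein, is also a regulator of inflammatory mRNAs and a common reference gene. One of its 4 probe sets had signals of 2742 and 3040 units at 0 h, 5904 and 6197 at 6 h, 7222 and 6724 at 12 h, and 6368 and 6825 at 24 h. Every later array stood far above both 0 h arrays. It rose by 1.06 ± 0.09, 1.27 ± 0.09 and 1.19 ± 0.09 at 6, 12 and 24 h.

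A second Rpl13a probe set rose by 0.85 ± 0.11, 1.0 ± 0.11 and 0.78 ± 0.11, from 6164 and 5337 units to 9424 and 10368 at 24 h. All 6 calls of these probe sets were kept under each alternative tried (adjusted p up to 0.017). The brightest probe set, by contrast, had 16073 and 16146 units at 0 h and 15090 and 14320 at 24 h. It and the fourth were at 0.02 and -0.01 at 6 h, 0.24 and 0.25 at 12 h, and -0.13 and -0.08 at 24 h, none of them called. Which transcripts each probe set binds was not examined here.

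Rps20 split in the same manner. Its bright probe sets moved by -0.08 to 0.11 from 0 h at all times. A dim one fell from 245 and 233 units at 0 h to 97.3 and 65.5 at 6 h, and stood at 111 and 145 at 12 h and 147 and 160 at 24 h, lowest at 6 h. It fell by 1.35 ± 0.21 at 6 h (adjusted p = 0.0017) and by 0.81 ± 0.21 at 12 h (adjusted p = 0.0174, up to 0.11 when an array was left out), and was at -0.57 ± 0.21 at 24 h (adjusted p = 0.0563). The other dim one fell by 0.99 ± 0.25 and 0.80 ± 0.25 and was at -0.23 ± 0.25 at 24 h; its 6 h and 12 h calls were lost without either array of 0 h (adjusted p up to 0.235 over the alternatives).

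Rpl22 had a bright probe set at 0.18, 0.01 and -0.12 at 6, 12 and 24 h, none called, and a dim one that rose by 0.38 ± 0.12, 0.49 ± 0.12 and 0.74 ± 0.12. The dim one had 393 and 347 units at 0 h, 477 and 496 at 6 h, 528 and 528 at 12 h, and 621 and 641 at 24 h, with no overlap between times. Its 24 h call was kept under each alternative tried, its 12 h call was lost without 0 h replicate 2 (adjusted p = 0.106), and its 6 h call was lost under 12 of 18 alternatives.

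Rps24 is a small subunit protein whose mRNA is alternatively spliced at its 3' end. All 5 tested probe sets were higher at 6 h, by 0.34 to 0.89, and 2 of these passed. A dim probe set of Rps24 that the filter left out went the other way, with 61.3 and 66 units at 0 h and 18.8 and 13.1 at 6 h. Of those that passed, the brighter had signals of 8791 and 8290 units at 0 h and 12310 and 11746 at 6 h. It had 10252 and 9220 at 12 h and 8353 and 9978 at 24 h, so both 6 h arrays were above all others. It rose at 6 h by 0.49 ± 0.11 (adjusted p = 0.00943, or 0.0932 at most without an array of 0 h). The other that passed was dim (56.9 and 65.1 units at 0 h) and rose by 0.89 ± 0.24. Its 0 h signals were below the filter level, so it entered the test only through its later arrays. The call was lost without the filter (limma, adjusted p = 0.0751). It was also lost without either 0 h array or 6 h replicate 1, where the difference was 0.70 to 0.96. A further probe set was called at 12 h, by 0.47 ± 0.15 (adjusted p = 0.0438, or 0.321 without 12 h replicate 1).

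The 5 tested probe sets of Rpl35, a large subunit protein at the tunnel exit, were all bright, and a dim one was not tested. The 5 stood at 0.15 to 0.40 at 6 h, 0.12 to 0.32 at 12 h and -0.19 to -0.05 at 24 h, some highest at 6 h and the others at 12 h. One was called at 6 h (0.40 ± 0.10, adjusted p = 0.0216, or 0.147 at most over the alternatives). The 3 probe sets of Rpl27 stood at -0.30 to -0.19 at 24 h, of which one fell by 0.30 ± 0.09 (adjusted p = 0.0238, or 0.174 at most). The 3 of Rps28, the 3 of Rps29 and the 3 of Rps18 differed among themselves by at most 0.26 in any difference from 0 h, and none was called. For Rps10, Rpl37a and Rpl41, a dim probe set scattered widely between replicates: that of Rps10 had 4362 and 2706 units at 0 h and 1614 and 3973 at 24 h.

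**Figure D4:**
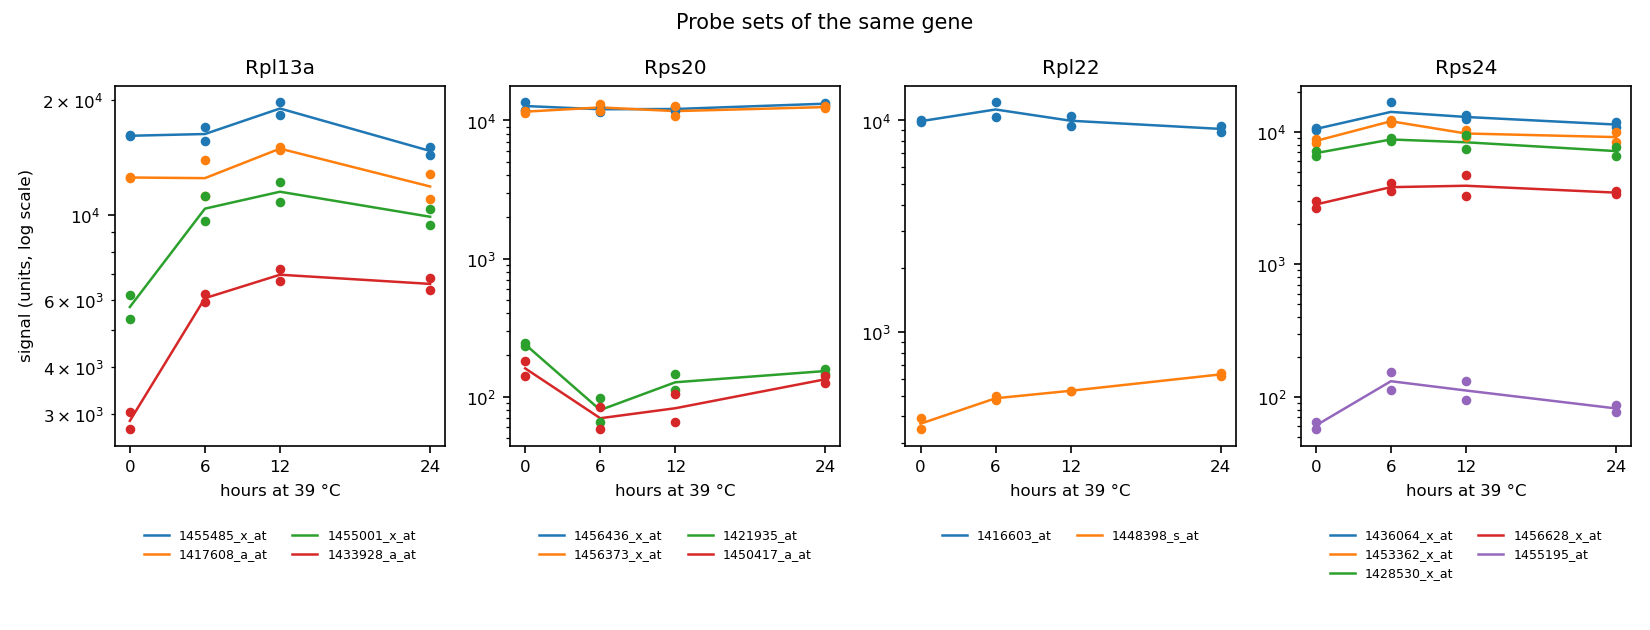
Signals (y axis, units, log scale) of each tested probe set of Rpl13a, Rps20, Rpl22 and Rps24 against hours at 39 °C (x axis), 1 point per array with lines through the means on the log2 scale. For Rpl13a the dimmer probe sets rise from 2742 to 6164 units at 0 h while the brighter ones stay near their 0 h level, and for Rps20 only the dim probe sets fall.

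Steps between the later times involved few members. From 6 h to 12 h, 2 of 87 members were called (2.30%, background 8.32%), both higher (background 4.61%): Rpl22l1 by 0.70 ± 0.15 (adjusted p = 0.0188) and 1 probe set of Rps27l by 0.36 ± 0.09 (adjusted p = 0.0349). The first was not called without 6 h replicate 1 or 12 h replicate 2 (adjusted p up to 0.124), the second without any array of 0 h, 12 h or 24 h (up to 0.175). No member was called lower by limma (background 3.71%), and 9 were lower at an unadjusted p below 0.05. The next smallest adjusted p were those of Rpl7l1 (-0.34, adjusted p = 0.0568; -0.41 and 0.0934 on its brighter probe set) and Rpl10a (0.26, adjusted p = 0.0899), which did not pass.

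From 12 h to 24 h, 54 of the 57 bright members had negative differences, with a median of -0.25, against -0.15 for the other bright probe sets and 0.01 over all. Under limma 5 members passed (5.75%, background 6.88%): 4 fell (4.60%, background 3.11%) and 1 rose (1.15%, background 3.77%). Rps25 fell by 1.27 ± 0.10 (adjusted p = 0.000154), under each alternative tried. Rpl35 (1 probe set, -0.51 ± 0.12, adjusted p = 0.0304), Rpl11 (-0.46 ± 0.11, adjusted p = 0.0293) and the brightest Rpl13a probe set (-0.37 ± 0.09, adjusted p = 0.0355) fell as well. Each of those 3 calls was lost without any one array of 0 h, 12 h or 24 h (adjusted p up to 0.248), and all 3 were lost after cyclic loess. Leaving out an array of 6 h, on the other hand, raised the number of bright members called lower. It also raised the share of all tested probe sets called lower, and the median of the bright members stayed at -0.25. With only 12 h and 24 h in the fit, 17 of the 57 bright members were called lower, in place of 3. The share of all tested probe sets called lower was then 4.08%, in place of 3.11%. Rps27 rose by 0.82 ± 0.20 (adjusted p = 0.035, up to 0.195 without an array of 12 h or 24 h).

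Genes that work with the ribosome were set beside the members. Of the ribosomal proteins made as ubiquitin-like fusions, Fau was measured: it had 15018 and 14509 units at 0 h and 18244 and 17824 at 12 h, rose at 12 h by 0.29 ± 0.09 (adjusted p = 0.0315) and fell from 12 h to 24 h by 0.36 ± 0.09 (adjusted p = 0.0308). Of 20 elongation factor and other TOP mRNA genes, 18 were tested. Their median was 0.06, 0.07 and -0.03 at 6, 12 and 24 h, with 1, 1 and 0 higher (5.56%, 5.56% and 0%, background 8.65%, 12.1% and 17.1%) and 0, 0 and 2 lower (0%, 0% and 11.1%, background 9.33%, 11.9% and 15.8%). Eef1a1, which brings aminoacyl-tRNA to the ribosome, was at 0.29 ± 0.11 at 12 h (adjusted p = 0.0706) and 0.07 ± 0.11 at 24 h.

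Of 31 listed initiation factors, which bring the ribosome to the start codon, 24 were tested, with medians of -0.05, -0.18 and -0.35 at 6, 12 and 24 h against 0.00, 0.01 and 0.02 over all, and 4, 8 and 13 fell (16.7%, 33.3% and 54.2%, background 9.33%, 11.9% and 15.8%). At each time 1 rose (4.17%, background 8.65%, 12.1% and 17.1%). This list does not hold every initiation factor. Eif4b, Eif3e, Eif3f, Eif3h, Eif3k, Eif3m and Eif2s3x were counted among the TOP mRNA genes above. At 24 h these were at 0.14, -0.40, 0.00, 0.07, 0.02, -0.08 and -0.29, and of them only Eif3e was called (limma, adjusted p = 0.0188). The difference between the initiation factor list and the ribosomal proteins was not tested. Eif6, which keeps the large subunit from joining early, fell at 24 h by 1.24 on the log2 scale (adjusted p = 6.18e-06), from 6440 and 6358 units to 2796 and 2596. Eif4e, the cap-binding protein, fell by 0.75 (adjusted p = 0.000979). The gene that rose was Eif4a2, a helicase, by 0.77, 0.72 and 0.56. Of the TOP mRNA regulators, 5 of 7 were tested, and at 24 h 2 of them (40%, background 15.8%) fell: Larp1 (-0.35, adjusted p = 0.0121) and the S6 kinase gene Rps6kb2 (-0.50, adjusted p = 0.0465), while Mtor was at 0.00 (adjusted p = 0.983). These comparisons share the 0 h arrays with those of the ribosomal proteins.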

How the data were processed

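Total RNA (5 µg per array) was labelled by one-cycle cDNA synthesis and in vitro transcription, per the labels' protocols. The authors deposited linear intensities per probe set (0.1 to 38130.2 units), by software not given in the sources used here. Equal trimmed means (2% of values removed at each end) of the arrays show a common scaling, under which a change in total mRNA per cell is not visible. Of the 22626 probe sets left after 64 controls, 20380 had 1 gene symbol, 691 several and 1555 none. All 100 member symbols were found in a RefSeq gene table (GRCm38.p6).

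Values were taken as log2(intensity + 21.9), the offset being the 20th percentile, so that log2 differences understate the change of dim probe sets. A filter on the mean log2 value, at its 40th percentile (6.584), left 13576 probe sets. Arrays were not normalized again, since the spread of their log2 medians was 0.14. All 8 arrays entered 1 limma 3.58.1 fit (R 4.3.3, lmFit and eBayes, the latter with a variance trend, 4 residual and 7.22 prior degrees of freedom), with 2-sided contrasts and Benjamini-Hochberg adjustment over all tested probe sets. A call is an adjusted p below 0.05. The ± sign gives the fit's standard error, and with 2 arrays per time the number of arrays limits the precision. The steps were checked on simulated data. Alternatives were other normalizations, offsets and filters, no variance trend, a replicate block, only the times compared, each array left out, 1 probe set per gene, and no probe sets of the cross-hybridising classes _x_at and _s_at.

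Members and lists were chosen with earlier results of these data known. Genes named were, per comparison, up to 8 with the largest change among called genes (or the 3 with the smallest adjusted p where fewer than 3 were called), the paralogs with their partners, and members with known further roles, each by its brightest probe set. Rpl27, Rpl35, Rpl41, Rps10, Rps18, Rps20, Rps28 and Rps29 and the probe sets other than the brightest were named after their values were seen.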

Additional observations from a re-analysis of the deposited data

How the results depend on the processing

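Of 50 calls of a member in a comparison, 19 were kept under every alternative tried, 31 were lost under at least 1, and 0 changed direction; 126 further pairs of a member and a comparison were called under at least 1 alternative. At 6 h against 0 h, the 12 called members became 2 with 1 probe set per gene, 6 without _x_at and _s_at probe sets, and 4 (without 0 h replicate 1) to 41 (without 6 h replicate 2) with an array left out. At 12 h, the 18 became 11 with median-centred arrays, 11 without a variance trend, 8 without a filter, 8 with 1 probe set per gene, 54 with only the 2 times of the comparison in the fit, and 6 (without 0 h replicate 1) to 51 (without 6 h replicate 2) with an array left out. At 24 h, the 13 became 6 with 1 probe set per gene. From 6 h to 12 h, the 2 became 0 without a filter, without a variance trend or with only the 2 times compared. They became 1 with median-centred arrays, with 1 probe set per gene or without _x_at and _s_at probe sets. From 12 h to 24 h, the 5 became 3 after quantile normalization, 2 after cyclic loess, 9 with median-centred arrays, 1 without a filter, 8 with the stricter filter, 1 without a variance trend, 19 with only the 2 times compared, 3 without _x_at and _s_at probe sets, and 1 (without 12 h replicate 1) to 34 (without 6 h replicate 2) with an array left out. In the F-test, the 26 became 16 without a filter, 16 without a variance trend, 12 with 1 probe set per gene, 17 without _x_at and _s_at probe sets, and 14 to 65 with an array left out.

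The share of all tested probe sets called moved with these settings too. At 12 h it was 24% in the fit used above and with median-centred arrays. It was 20.3% without a variance trend, 11.3% without a filter and 28% with only the 2 times compared. From 6 h to 12 h, against 8.32%, the same settings gave 7.24%, 4.46%, 2.85% and 1.77%. From 12 h to 24 h, against 6.88%, they gave 6.5%, 2.72%, 2.34% and 9.13%, and the stricter filter 10.7%. Quantile normalization gave 7.12% and cyclic loess 6.21% for that step. The median over the members at 6 h, 0.16, was 0.0693 after quantile normalization and 0.0727 to 0.27 with an array left out. That at 12 h, 0.25, was 0.0442 after quantile normalization, 0.12 after cyclic loess and 0.23 to 0.25 with an array left out. That at 24 h, 0.01, was -0.0908 with median-centred arrays and -0.01 to 0.05 with an array left out. That from 6 h to 12 h, 0.06, was -0.0594 to 0.15 with an array left out. That from 12 h to 24 h, -0.23, was -0.0385 after quantile normalization, -0.0486 after cyclic loess and -0.24 to -0.20 with an array left out. The causes were not tested.

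Replicate numbers shared between times were checked as pairs: the correlations of their deviations ran from 0.0496 to 0.18, not all over 0.1, so they were taken as numbers only. With the replicate block, 4 members were called from 6 h to 12 h and 8 from 12 h to 24 h, and the counts of the other comparisons stayed within 1.5 times the values above. Over all probe sets the block gave 2813, 3647, 4832, 1463 and 1212 calls in place of 2441, 3257, 4472, 1130 and 934. Signal over background limits what the dim members can show, and detection calls were not used here.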
